A study of Mus musculus with 9 samples.

Results

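The genes described here were silent in wild-type (WT) mouse embryonic fibroblasts (MEFs) and on in MEFs without the histone methyltransferases G9a and Glp (G9Gl), while they stayed low in MEFs without Suv39h1 and Suv39h2 (S1S2). A gene was a member if it had 5 or fewer read counts in each WT library, a level of at least 1 CPM (read counts scaled to the library total) in each G9Gl library and a mean S1S2 level under 0.5 CPM. Genes of 9 families named by their symbols (Oas, Ifit, Slfn, Prl, Akr1, Zfp, Pcdh, Hox and Col) were left out. By this rule 113 of 47937 genes were members, and 11 more met the limits but belonged to a left-out family. All 3 genotypes entered the rule, so the members were chosen by their levels in WT, S1S2 and G9Gl libraries alike, and these levels are a description from which no test can draw support.

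RNA-seq was performed on 9 MEF libraries, 3 of each genotype. WT denotes the parental clone of the study, MEFs that carry a conditional Eset1 allele and a tamoxifen-inducible Cre. S1S2 cells carry CRISPR/Cas9 disruptions of Suv39h1 and Suv39h2, and G9Gl cells carry disruptions of Ehmt2, which encodes G9a, and Ehmt1, which encodes Glp. Both mutants were made in the parental clone and so carry its conditional Eset1 allele. Per the study, a Cre construct with puromycin resistance was put back after the disruptions, and lines were kept under puromycin. The sample labels do not say whether tamoxifen was given. Per the methods of the study, mutant lines were single-cell clones picked for loss of the target proteins, and 3 biological replicates were sequenced per line. How the replicates were separated is not given, and that all libraries of a genotype came from the same clone is an assumption made here. If so, genotype and clone cannot be told apart in any comparison below, and the tests measure the spread between libraries of 1 clone.

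G9a and Glp work as a heterodimer that places mono- and dimethylation on lysine 9 of histone H3 (H3K9), mostly in the gene-containing part of the genome. Suv39h1 and Suv39h2 place trimethylation on the same residue, mainly at pericentric repeats. H3K9 dimethylation is known for covering tissue-specific genes in cells that do not use them, among them genes of germ cells, neurons and immune cells.

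Library totals ranged from 21319778 to 32157623 counts. At these depths 5 counts equalled at most 0.166 CPM in a WT library, and 1 CPM took between 28.4 and 30.8 counts in a G9Gl library. The targeted genes were still transcribed. Ehmt1 stood at 105 ± 1.2 CPM in WT and 49.8 ± 1.87 CPM in G9Gl MEFs (SD, n = 3), and Ehmt2 at 126 ± 8.04 and 53.8 ± 3.2 CPM. In S1S2 MEFs Suv39h1 fell to 41.6 ± 3.02 CPM from 109 ± 3.9 CPM, and Suv39h2 stood at 54.9 ± 2.12 CPM against 34.4 ± 0.929 CPM, so its RNA was not lower. The 6 defining fibroblast markers (Col1a1, Col1a2, Vim, Fn1, Pdgfrb and Thy1) summed to 8471 to 9699 CPM in the WT libraries, 7109 to 7205 CPM in S1S2 and 6909 to 7553 CPM in G9Gl. Col1a2 stood at 2424, 393 and 2013 CPM in these genotypes and Thy1 at 5.04, 2.04 and 38 CPM. A list of 20 fibroblast markers summed to 5973 to 6373, 6046 to 6299 and 7121 to 7488 CPM, so the order of the genotypes depended on the markers chosen.

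The members were weakly expressed as a group. Their mean G9Gl level ran from 1.12 to 21.9 CPM with a median of 2.59 CPM. It reached 5 CPM in 24 members and 10 CPM in 7, and was under 2 CPM in 44. Summed over all members, the WT libraries held between 3.3 and 3.99 CPM, the S1S2 libraries between 6.64 and 8.82 CPM and the G9Gl libraries between 416 and 451 CPM. No count was recorded in any WT library for 33 members, in any S1S2 library for 36, and in any library of either genotype for 18. At the other end, 9 members had a WT library at the limit of 5 counts, and 27 had a mean S1S2 level of 0.1 CPM or more.

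**Figure D1:**
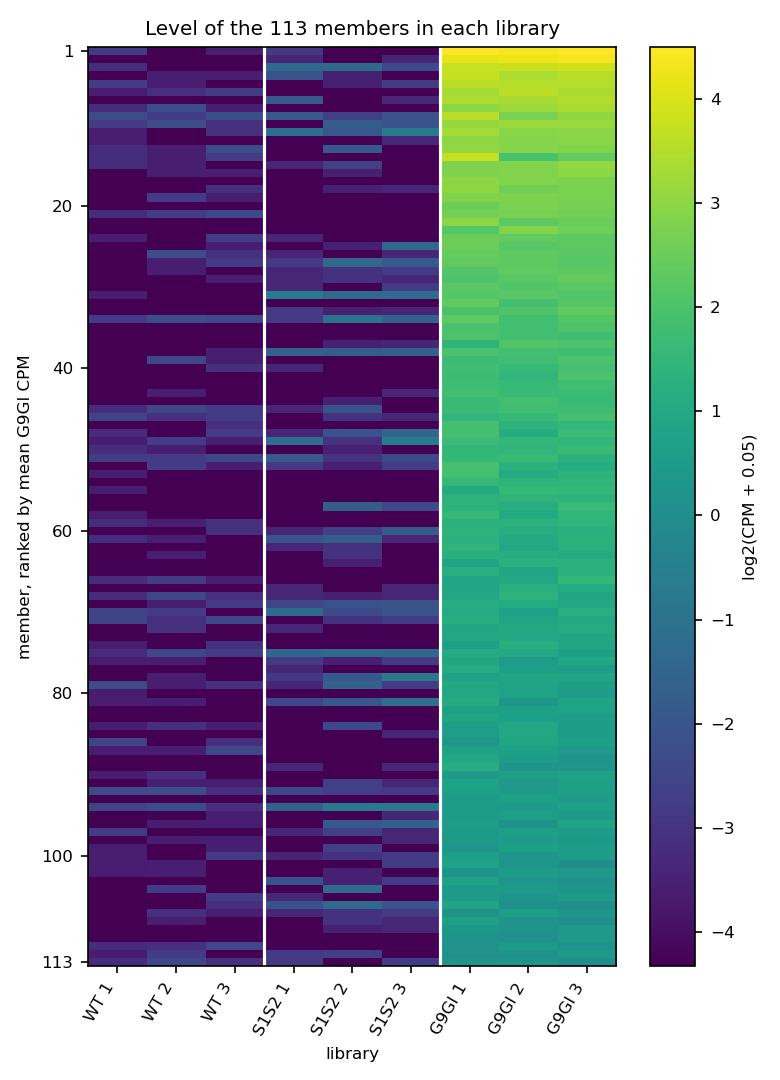
Level of each of the 113 members (rows, ranked by mean G9Gl CPM) in each of the 9 libraries (columns), as log2(CPM + 0.05) on the colour scale. The 3 G9Gl columns stand at or above 1 CPM by the rule, and scattered low counts appear in the WT and S1S2 columns.

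The coefficient of variation between the G9Gl libraries had a median of 11.2% and exceeded 25% in 12 members. The lower limit in each G9Gl library kept out genes with an uneven level near 1 CPM. The least even was Mamdc2, a matrix proteoglycan, with 375, 109 and 161 counts in the G9Gl libraries and a coefficient of variation of 68.1%. Members just inside the G9Gl limit were Gm805, Gbp5 and Ap3b2, each with a lowest library at 1.01 CPM. Just outside it were 4932415M13Rik at 0.985 CPM and Gm11427 and Sgo2b at 0.974 CPM. On the S1S2 side, Cmah (0.444 CPM) and Raet1d (0.443 CPM) were inside, and Nebl (0.54 CPM) and Iigp1 (0.601 CPM) outside. The same rule with the mutants exchanged gave 26 genes, and 6 WT-silent genes outside the left-out families reached 1 CPM in every library of both mutants.

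All 113 members passed the filter on low counts in the fit across all genes. All were called higher in G9Gl than in WT MEFs and than in S1S2 MEFs under limits of 0.01 on the adjusted p and 2 on the fold (edgeR), where 6.77% of the 15540 genes tested were called higher in the first contrast and 7.97% in the second (5.08% were lower). The rule used both contrasts, so these counts carry no information of their own. Between S1S2 and WT, a contrast the rule also used, 11 members were called higher and 1 lower, where 4.66% of all genes tested were called higher and 4.34% lower.

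The members were mostly protein-coding. Of the 113, 89 (78.8%) were annotated as protein-coding, while 29.9% of the annotated WT-silent genes were. A further 10 were lincRNAs, 4 processed transcripts, 2 antisense transcripts and 5 pseudogenes, 2 were T cell receptor gene segments, and 1 transcript was unclassified. Their exons covered a median of 3334 bases, against 785 bases for WT-silent genes. A limit on CPM takes no account of length, and longer genes collect more counts at the same level per length. The longest transcripts of the protein-coding members had a median GC content of 46.4%, close to the 46.9% of other WT-silent protein-coding genes and lower than the 49.9% of protein-coding genes over 5 counts in a WT library.

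The 2 members with the highest CPM lie near each other on chromosome X and are known from the testis. Tcp11x2 (chrX:135654698-135693790, GRCm38), a relative of the sperm gene Tcp11, had 3, 0 and 1 counts in the WT libraries, 2, 0 and 0 in the S1S2 libraries and 639, 593 and 693 in the G9Gl libraries. Its G9Gl level was 21.9 ± 0.932 CPM (SD, n = 3), 509-fold that of WT, with a 95% counting interval of 198 to 1869. Nxf3 (chrX:136072099-136085255), a germ-cell member of the nuclear RNA export factor family, was absent from the WT libraries, had 1, 0 and 1 counts in the S1S2 libraries and 505, 545 and 645 counts in the G9Gl libraries. The G9Gl libraries lay above all others for both genes, a separation that the limits of the rule set for nearly any member. With WT at 0, the level of Nxf3 (19.3 ± 1.59 CPM) was at least 597-fold higher, computed against a floor of 3 counts over the WT group. Intervals are exact (Clopper-Pearson), and intervals and floors cover counting error only.

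Between these genes lie others that fibroblasts use. Armcx5, Gprasp1, Bhlhb9 and Arxes2 were expressed in WT MEFs at 15.2, 32.6, 44.5 and 6.16 CPM, and their log2 fold changes in G9Gl MEFs were -0.14, -0.06, 0.34 and 0.22. None of the 4 was called, and the sign for Gprasp1 turned when WT replicate 3 was left out. The promoter of Tcp11x2 is shown as the gene with the highest member level. This and the other promoters below come from RefSeq (GRCm38.p6), run 5′ to 3′ on the strand of the gene and hold 250 bases before the start site and 50 bases from it on. This window is chrX:135693741-135694040 on the minus strand.
Tcp11x2: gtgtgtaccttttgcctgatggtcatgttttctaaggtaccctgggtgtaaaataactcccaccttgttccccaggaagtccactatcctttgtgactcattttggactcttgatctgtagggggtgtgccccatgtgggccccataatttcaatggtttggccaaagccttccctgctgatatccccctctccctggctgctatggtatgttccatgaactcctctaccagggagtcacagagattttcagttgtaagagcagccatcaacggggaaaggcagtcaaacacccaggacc
The window holds 1 CpG and none of the 4 motifs searched on both strands. These were GAAANNGAAA, the core of the interferon-stimulated response element, CACGTG, an E-box, TCCCGC, an E2F-type site, and TATAAA. They occur in 3.49%, 7.19%, 20.2% and 14.2% of the 27025 RefSeq promoters, 1 per gene. A promoter was found for 75 of the 113 members (66.4%), too few to describe the members as a set, so motif shares over the members are not given.

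The other 3 members known from germ cells or motile cilia were lower. 1700009N14Rik (chr4:39450295-39451776) had 118, 128 and 160 counts in the G9Gl libraries, against 1 count over the WT libraries and 4 over the S1S2 libraries. Efcab3 had 88, 99 and 95 G9Gl counts, and 73.0% of its 75-base stretches also occur in the overlapping Gm11639. Cfap61, a component of the cilium and sperm tail, had 77, 83 and 114. Defining germ cell markers were at or near 0 in the same libraries. Of 6 defining germ cell markers, 4 (Dazl, Stra8, Mael and Tex101) were at 0 in every G9Gl library, and the 6 together stayed at or below 0.106 CPM in G9Gl, 0.273 CPM in S1S2 and 0.124 CPM in WT MEFs. Fewer cells of a type and less RNA per cell cannot be told apart in such bulk libraries.

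A pair of vomeronasal pheromone receptor genes, which are normally restricted to sensory neurons of the vomeronasal organ, were members side by side on chromosome 7. Vmn2r79 (chr7:86996115-87044941) had 2, 0 and 0 counts in the WT libraries, 8, 10 and 3 in the S1S2 libraries and 382, 389 and 449 in the G9Gl libraries. Vmn2r78 (chr7:86915094-86955312) had no WT count, 0, 7 and 3 counts in the S1S2 libraries and 72, 62 and 94 in the G9Gl libraries. Both also had S1S2 counts, with means of 0.289 and 0.131 CPM. The annotated exons of Vmn2r79 cover 14279 bases, so its 13.9 ± 0.596 CPM came to 0.974 CPM per kilobase. By contrast, Platr3, a lincRNA of 412 exonic bases, had the highest level per length, 14 CPM per kilobase. The promoter of Vmn2r79 (chr7:86996215-86996514, plus strand) is shown as the second highest member promoter at hand.
Vmn2r79: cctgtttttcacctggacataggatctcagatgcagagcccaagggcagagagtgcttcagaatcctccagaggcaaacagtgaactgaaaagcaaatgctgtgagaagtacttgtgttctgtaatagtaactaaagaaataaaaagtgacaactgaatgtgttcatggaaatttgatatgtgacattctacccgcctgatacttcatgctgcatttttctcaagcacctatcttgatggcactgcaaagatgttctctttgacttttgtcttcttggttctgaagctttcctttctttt
It holds 1 CpG, has a GC content of 40.3% and matches none of the 4 motifs. The whole window lies inside the gene span given above, so the RefSeq start site is downstream of the annotated start.

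**Figure D2:**
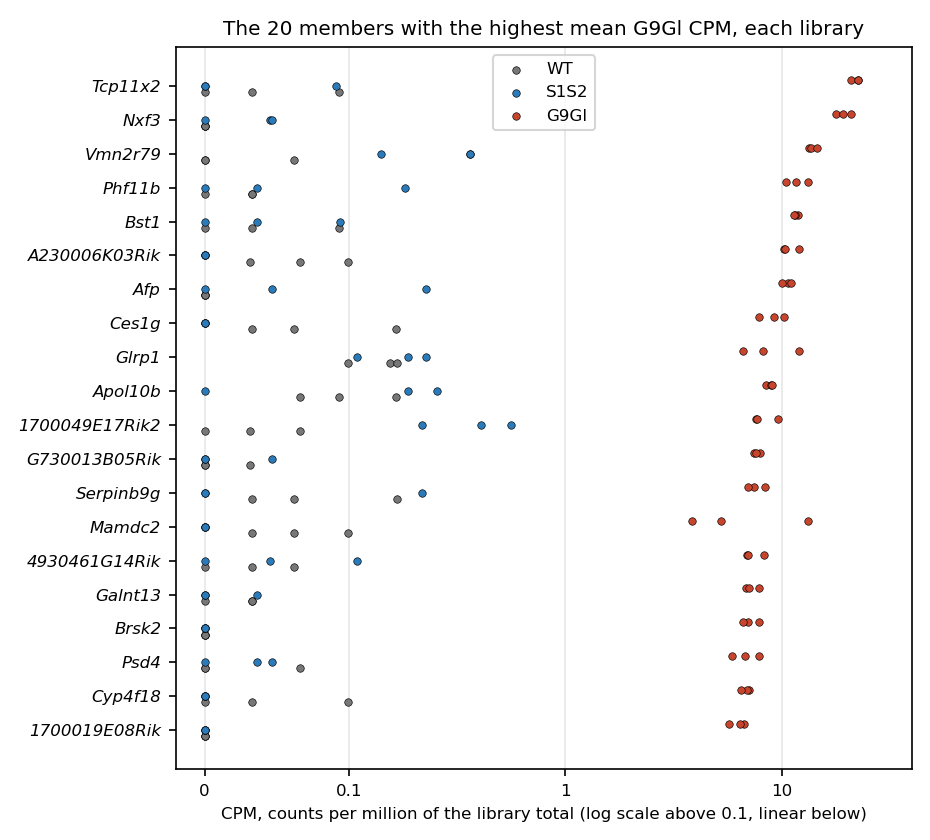
CPM of the 20 members with the highest mean G9Gl CPM in each library (1 point per library, WT grey, S1S2 blue, G9Gl red), on an axis that is logarithmic above 0.1 CPM and linear below. All G9Gl points lie to the right of 1 CPM, and the 3 points of Mamdc2 are the most widely spread.

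Genes of innate immunity and inflammation made up 13 members, with mean G9Gl levels from 1.25 to 11.7 CPM. The highest belonged to the Phf11 cluster on chromosome 14, PHD finger genes of which several respond to interferon. Phf11b (chr14:59320964-59341351) had 0, 1 and 1 counts in the WT libraries, 4, 1 and 0 in the S1S2 libraries and 374, 297 and 358 in the G9Gl libraries, or 11.7 ± 1.36 CPM. Phf11a (chr14:59276913-59297522) had no count in any WT or S1S2 library and 221, 141 and 175 in the G9Gl libraries. Phf11d (chr14:59347407-59365470) had 3, 5 and 4 counts in the WT libraries, 2, 12 and 6 in the S1S2 libraries and 144, 99 and 134 in the G9Gl libraries. These 3 genes and the adjacent Gm6904, with 39, 46 and 43 G9Gl counts and no others, are 4 consecutive annotated genes over 121 kb.

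The genes at both ends of this cluster changed little. Phf11c, the next gene on the Setdb2 side, was expressed in WT MEFs at 4.14 CPM and in G9Gl MEFs at 5.32 CPM, with a log2 fold change of 0.39 (adjusted p = 0.0163, edgeR). Setdb2 beyond it (29.4 and 28.2 CPM) and Rcbtb1 on the other side (84.1 and 85 CPM) had log2 fold changes of -0.03 and 0.05, and the sign for Setdb2 turned when G9Gl replicate 2 was left out. Phf11a, Phf11b and Gm6904 share sequence: 17.4%, 26.8% and 16.3% of their 75-base stretches occur in another gene, mostly of this cluster, so part of their counts may have been divided between them by the counting.

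The promoters of the 3 Phf11 members are shown because these members lie side by side, and those of Phf11a and Phf11d were chosen after their values were seen. Capitals mark each match to GAAANNGAAA on either strand. The windows, all on the minus strand, are chr14:59341281-59341580 for Phf11b, chr14:59297473-59297772 for Phf11a and chr14:59365441-59365740 for Phf11d.
Phf11b: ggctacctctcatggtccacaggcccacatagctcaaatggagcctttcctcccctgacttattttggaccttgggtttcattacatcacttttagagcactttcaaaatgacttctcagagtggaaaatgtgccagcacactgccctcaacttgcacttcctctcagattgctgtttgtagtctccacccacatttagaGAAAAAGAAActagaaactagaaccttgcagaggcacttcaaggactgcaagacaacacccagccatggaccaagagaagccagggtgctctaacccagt
Phf11a: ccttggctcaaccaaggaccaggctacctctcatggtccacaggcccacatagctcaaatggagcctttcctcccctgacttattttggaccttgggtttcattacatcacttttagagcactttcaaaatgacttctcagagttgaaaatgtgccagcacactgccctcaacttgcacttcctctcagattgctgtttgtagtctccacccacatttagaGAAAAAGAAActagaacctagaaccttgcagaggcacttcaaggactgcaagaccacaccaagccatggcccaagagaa
Phf11d: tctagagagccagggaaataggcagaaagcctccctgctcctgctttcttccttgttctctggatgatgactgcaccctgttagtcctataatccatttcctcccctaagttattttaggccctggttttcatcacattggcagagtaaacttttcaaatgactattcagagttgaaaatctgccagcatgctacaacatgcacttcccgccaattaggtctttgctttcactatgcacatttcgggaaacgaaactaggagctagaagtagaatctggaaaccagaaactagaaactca
The same match, GAAAAAGAAA, begins 50 bases before the start site of Phf11b and 29 bases before that of Phf11a. At a shift of 21 bases these promoters were identical at 274 of 279 positions (98.2%), so they are near copies and count as a single observation of the motif. The Phf11d window holds no match and aligned without gaps at no shift above 40.8% identity. None of the Phf11 windows holds CACGTG or TATAAA, and that of Phf11d holds 1 match to TCCCGC.

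**Figure D3:**
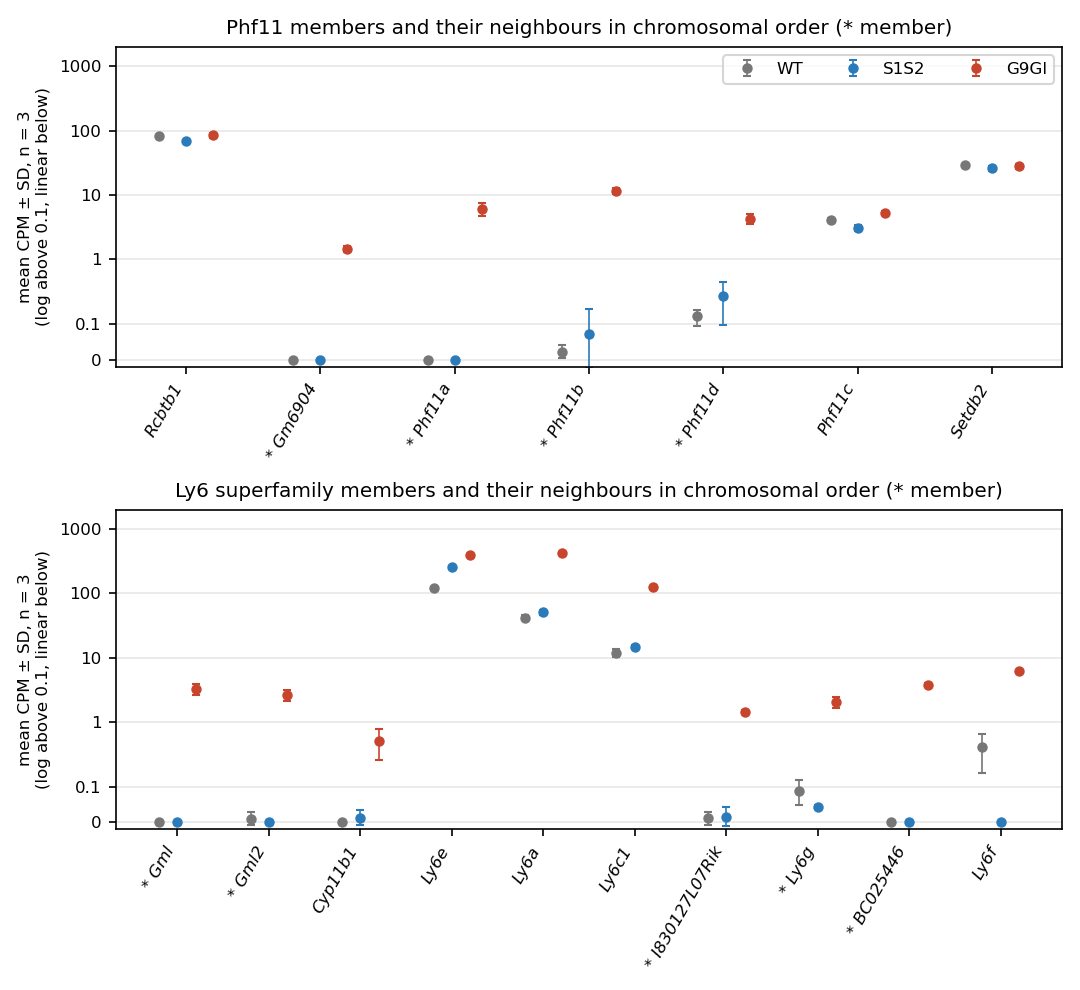
Mean CPM ± SD of 3 libraries per genotype for genes of the Phf11 region (top) and the Ly6 region (bottom), in chromosomal order and evenly spaced, members marked with an asterisk, for genes with a mean of at least 0.5 CPM in any genotype. The axis is logarithmic above 0.1 CPM and linear below. In the Phf11 region Rcbtb1, Phf11c and Setdb2 have similar levels in all genotypes, while in the Ly6 region Ly6e, Ly6a and Ly6c1 between the members are also higher in G9Gl.

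Inflammasome genes were among the remaining innate members. Casp1, the protease that cleaves pro-interleukin-1β, had 95, 87 and 105 counts in the G9Gl libraries and Il1a, which encodes interleukin-1α, had 65, 51 and 77, and neither had a count in any WT or S1S2 library. Their G9Gl levels were at least 101-fold and at least 68-fold above the WT floor. Naip5 and Naip6 on chromosome 13, sensors that bind bacterial flagellin, had 61, 43 and 46 and 60, 35 and 52 counts in the G9Gl libraries. In the S1S2 libraries Naip5 had 1, 0 and 0 counts and Naip6 had 3, 6 and 9. Their neighbour Naip2, which senses bacterial secretion system proteins, missed the WT limit with 8, 6 and 5 counts and the S1S2 limit with a mean of 1.29 CPM. It rose to 25.4 CPM, a log2 fold change of 6.95, and also rose in S1S2 MEFs (2.69). Naip2 passed the filter on low counts through the mutants, so its tests were largely set by the filter and are not given.

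The Trim5 and Trim30 region of chromosome 7, which encodes antiviral ubiquitin ligases, held a pair of members. Trim5 had 0, 1 and 3 counts in the WT libraries, 2, 9 and 5 in the S1S2 libraries and 143, 140 and 140 in the G9Gl libraries. Trim30c had none in WT, 1, 2 and 0 in S1S2 and 75, 54 and 70 in G9Gl. Around these members, Trim6, Trim34a, Trim12a, Trim12c and Trim30a were all called higher in G9Gl MEFs, with log2 fold changes of 2.96, 4.19, 5.75, 3.83 and 9.24. The latter 4 were also called higher in S1S2 MEFs, by 1.87, 1.67, 1.54 and 3.75. Trim30a reached 85.9 ± 12.4 CPM from 0.142 CPM in WT, and missed membership because a WT library had 7 counts and the S1S2 mean was 1.94 CPM. Trim5 shares 20.6% of its 75-base stretches with other genes, mostly Trim12c and Trim12a.

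Apol10b, Gbp5, Ifi208 and Gm5431 complete the innate group. Apol10b, of the apolipoprotein L family, had 3, 5 and 2 counts in the WT libraries, 0, 7 and 4 in the S1S2 libraries and 241, 254 and 278 in the G9Gl libraries. Gbp5, an interferon-induced GTPase, had 0, 0 and 2 counts in WT, 4, 10 and 4 in S1S2 and 49, 29 and 31 in G9Gl. Ifi208, of the interferon-inducible HIN200 family, had 63, 32 and 37 counts in G9Gl, none in WT and 2 in S1S2 MEFs. Of the 13 innate members 7 had no WT count, 4 no S1S2 count and 5 a mean S1S2 level of 0.1 CPM or more. Gm5431 was at 0 outside G9Gl and had 44, 46 and 52 counts there.

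Most interferon-stimulated genes outside the members were called higher too. Of a list of 61, 4 were members and 50 others were tested. Of these, 46 were called higher and 1 lower in G9Gl MEFs, with a median log2 fold change of 3.10, against 6.77% called higher and a median of -0.007 over all genes tested. In S1S2 MEFs 28 were called higher and none lower, with a median of 1.56. The largest changes in G9Gl MEFs were those of Trim30a, Tgtp1 (0.161 to 25.5 CPM) and Usp18, the interferon-induced protease that removes ISG15 (0.185 to 22.8 CPM). These genes were near 0 in WT and passed the filter on low counts through the mutants. Their calls, among the 46, were thus largely set by the filter. How many of the 46 share this was not counted. Usp18 was also called higher in S1S2 MEFs (3.66 CPM, log2 fold change 4.32). Whether the innate members follow this response was not tested.

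Lymphoid and myeloid surface and signalling genes made up 12 members. Bst1 (chr5:43818885-43843986), an ectoenzyme of the CD38 family found on myeloid and stromal cells, was the highest, with 3, 1 and 0 counts in the WT libraries, 0, 1 and 2 in the S1S2 libraries and 338, 326 and 350 in the G9Gl libraries. Its 11.6 ± 0.279 CPM was 268-fold the WT level (interval 104 to 985). Raet1d, a ligand of the activating receptor NKG2D, was close to the S1S2 limit, with 13, 10 and 8 counts there, against 1, 0 and 0 in WT and 127, 134 and 130 in G9Gl libraries. It overlaps Raet1e on the same strand and shares 44.1% of its 75-base stretches with it. Raet1e was higher in both mutants, at 0.337 CPM in WT, 7.11 CPM in S1S2 and 5.21 CPM in G9Gl MEFs.

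Ctla4 and Il2rg are T cell genes. Ctla4 (chr1:60887000-60915832), the inhibitory receptor, had 52, 43 and 46 counts in the G9Gl libraries and none elsewhere, as did Gm11581 (81, 75 and 83) and Gm38137 (55, 42 and 35) next to it. The costimulatory receptor gene Cd28 lies on the far side of these. It was not a member, because WT replicate 1 had 6 counts, but rose to 4.65 CPM with a log2 fold change of 5.55. Cd28 passed the filter on low counts through G9Gl alone, so its test was largely set by the filter and is not given. Il2rg, the common γ chain of several interleukin receptors, had 1, 1 and 0 counts in WT, 2, 1 and 2 in S1S2 and 54, 40 and 59 in G9Gl libraries.

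The other immune members had means between 1.15 and 2.98 CPM. They included the T cell receptor segments Trdc and Trav14-2, Ly6g, the antigen of neutrophils, Cd200r3, a receptor of the CD200 receptor family, March1, a ubiquitin ligase of MHC class II, Wdfy4, used by dendritic cells in cross-presentation, Nckap1l, the haematopoietic subunit of the WAVE complex, and Gimap9, a GTPase of lymphocytes. Defining markers of leukocytes were low. Of 6 defining leukocyte markers, Cd3e was at 0 in all G9Gl libraries, Ptprc (CD45) had 2, 2 and 4 counts there, and Csf1r, a receptor of macrophages, had 1 count in each WT library and 3, 10 and 8 in the G9Gl libraries. The 6 summed to between 0.352 and 0.422 CPM in G9Gl, against at most 0.0933 CPM in WT and 0.0469 CPM in S1S2, and their part in the results for this group was not tested.

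Outside the members, 10 listed blood and immune cell genes were tested. In G9Gl MEFs 4 were called higher and 1 lower, and in S1S2 MEFs 1 and 2. For this and the lists below, the shares over all genes tested were 6.77% higher and 3.4% lower in G9Gl and 4.66% higher and 4.34% lower in S1S2 MEFs. Lcp1, an actin-bundling protein of leukocytes, stood at 0.236 CPM in WT and 2.34 CPM in G9Gl (higher by 3.31 ± 0.319 SE on the log2 scale, adjusted p = 1.66e-07) and Itgb2, the β2 integrin, at 1.32 and 4.99 CPM (1.95, SE 0.125, adjusted p = 3.37e-08). Arhgap15, at 0.465 CPM in WT, had no count in either mutant (adjusted p = 4.68e-05 in G9Gl, edgeR). Lcp1 passed the filter on low counts through G9Gl and Arhgap15 through WT, the groups where they are high, which bears on their calls.

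Genes of the liver and gut, of lipid or of hormone metabolism made up 12 members. Afp (chr5:90490737-90508907), the albumin-like protein of fetal liver and yolk sac, had no WT count, 5, 0 and 1 counts in S1S2 and 303, 284 and 339 counts in the G9Gl libraries, 10.6 ± 0.512 CPM and at least 326-fold above the WT floor. Ces1g, a hepatic carboxylesterase, had 2, 5 and 1 counts in WT, none in S1S2 and 223, 261 and 318 in G9Gl. Cyp7a1, the rate-limiting enzyme of bile acid synthesis, had 144, 101 and 138 counts in G9Gl and none in the 6 other libraries. For each of these genes the G9Gl libraries lay above all others, as the rule requires of nearly any member.

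Cyp4f18, a fatty acid and leukotriene hydroxylase, had 201, 196 and 200 counts in the G9Gl libraries against 4 over the WT libraries. The remaining members of this group, Hephl1, Acsbg1, Slc28a2, Rarres2, Ces2f, Rbp2, Maob and Cmah, had means from 1.45 to 6.21 CPM. Of the 12 genes 7 had no count in S1S2 MEFs. Of 6 defining hepatocyte markers, Alb, Ttr, Serpina1a and Fgb were at 0 in every G9Gl library, Apoa1 had 1, 2 and 2 counts, and Apob stood at 1.87 CPM in G9Gl, 2.51 CPM in S1S2 and 0.108 CPM in WT MEFs. The 6 summed to 1.69 to 2.29 CPM in the G9Gl libraries, 2.05 to 3.19 CPM in S1S2 and 0.066 to 0.199 CPM in WT, and their part in the results for this group was not tested.

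Epithelial members numbered 8. Krt14, the keratin of basal keratinocytes, had no WT count, 2, 1 and 1 counts in S1S2 and 109, 118 and 156 counts in G9Gl libraries, or 4.35 ± 0.638 CPM. Of 6 defining epithelial markers, Krt5, the usual partner of Krt14 in basal cells, was at 0 in every library, and Krt18 was at 0 in WT and G9Gl and had 0, 8 and 3 counts in S1S2. Krt8 stood at 0.141 CPM in WT, 4.65 CPM in S1S2 and 0.219 CPM in G9Gl MEFs. The 6 summed to 0.33 to 0.563 CPM in the WT libraries, 4.89 to 5.68 CPM in S1S2 and 0.985 to 1.3 CPM in G9Gl, and their part in the results for this group was not tested. Pax8, a transcription factor of thyroid and kidney, had 123, 143 and 147 counts in the G9Gl libraries, 1 over the WT and 5 over the S1S2 libraries. The others included Muc16 (CA-125), Lama3, Mpzl2, Scel and Sprr2h, between 1.28 and 3.65 CPM. Outside the members, 14 listed epithelial genes were tested and 7 were called higher and 1 lower in each mutant. Grhl2, an epithelial transcription factor, stood at 0.807 ± 0.181 CPM in G9Gl, with WT counts of 0, 1 and 0. It passed the filter on low counts through G9Gl, so its G9Gl call, among the 7, was largely set by the filter. Pkp1, a desmosome protein, rose to 29.4 ± 0.539 from 1.61 CPM (higher by 4.21 ± 0.185 SE on the log2 scale, adjusted p = 8.94e-15). Krt7 rose to 9.71 ± 0.228 from 1.43 CPM (2.78, SE 0.158, adjusted p = 2.54e-10, edgeR). In S1S2 MEFs Grhl2 was also called higher (3.93, adjusted p = 0.00131) and Pkp1 lower (-2.70, adjusted p = 3.94e-07).

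Neuronal genes made up 10 members. Galnt13, a glycosyltransferase of neural tissue, had 0, 1 and 1 counts in WT, 0, 1 and 0 in S1S2 and 195, 200 and 243 in G9Gl libraries. Brsk2, a kinase of neuronal polarity, had 224, 199 and 205 counts in the G9Gl libraries and none in the others, at least 221-fold above the WT floor. Stmn2, a microtubule regulator of growing axons, had 2, 1 and 2 counts in WT, none in S1S2 and 71, 70 and 81 in G9Gl libraries. Csmd3, Robo3, Aff2, Celsr3 and Ap3b2 had means from 1.24 to 4.55 CPM. Those of these with the longest exons, Csmd3 and Celsr3, came to 0.269 and 0.125 CPM per kilobase.

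Defining neuronal markers were at or near 0 apart from Snap25. Rbfox3 and Gad1 were at 0 in all G9Gl libraries, Snap25 had 13, 22 and 10 counts there and Syt1 1, 6 and 3, with none in WT or S1S2, and the 6 defining markers summed to between 0.422 and 1.09 CPM, against at most 0.066 CPM in WT and 0.0725 CPM in S1S2. Their part in the results for this group was not tested. Of 15 listed neuron and glia genes tested outside the members, 4 passed as higher and 1 as lower in G9Gl MEFs, 3 and 3 did in S1S2 MEFs, and the median log2 fold change was -0.07 in G9Gl. Stmn4 rose from 0.128 to 2.51 CPM (4.26, SE 0.658, adjusted p = 1.61e-07), Syn1, of synaptic vesicles, rose from 0.5 to 6.58 CPM (3.75, SE 0.251, adjusted p = 1.4e-10), and Mapt, which encodes tau, fell from 1.22 to 0.136 CPM (-3.09, SE 0.272, adjusted p = 8.3e-06, edgeR). Stmn4 was also called higher in S1S2 MEFs (1.54 CPM, log2 fold change 3.54, adjusted p = 5.54e-06) and Mapt lower (0.438 CPM, -1.41, adjusted p = 0.00258, edgeR). With 6, 6 and 0 WT counts, Stmn4 passed the filter on low counts through the mutants, which bears on its calls. The S1S2 call of Mapt was lost without S1S2 replicate 1 (-1.07, adjusted p = 0.0176) or WT replicate 3 (-1.30). The whole neuron and glia list summed to 61.9 to 68 CPM in the WT libraries, 127 to 130 CPM in S1S2 and 67.4 to 77.7 CPM in G9Gl.

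The smaller groups were muscle, matrix and serpin genes. The muscle members were Xirp2 (73, 76 and 79 G9Gl counts, no others), Ctnna3 (85, 97 and 100, against 9 over WT) and Tnnc2, the troponin C of fast muscle. Tnnc2 had 5, 5 and 2 counts in the WT libraries, 3, 3 and 2 in the S1S2 libraries and 44, 38 and 48 in the G9Gl libraries, the lowest fold of all members at 11.5 (interval 6.34 to 22.7). It overlaps Ube2c, which is on the opposite strand at 113 CPM in WT and 109 CPM in G9Gl MEFs, and 35.0% of its 75-base stretches occur there. Of 6 defining skeletal muscle markers, the regulators Myod1 and Myog had no and 2 counts over the G9Gl libraries, while Acta1, skeletal muscle actin, stood at 0.697 CPM in WT, 0.279 CPM in S1S2 and 2.94 CPM in G9Gl MEFs. The 6 summed to 0.663 to 1.03 CPM in the WT libraries, 0.399 to 0.704 CPM in S1S2 and 2.29 to 3.54 CPM in G9Gl, and their part in the results for this group was not tested. Of 17 listed endothelial and muscle genes tested outside the members, 7 passed as higher and 2 as lower in G9Gl MEFs, and 1 and 3 in S1S2 MEFs. Cdh5, the cadherin of endothelium, had no WT count and stood at 1 ± 0.51 CPM in G9Gl, at least 31-fold above the WT floor. Tnnt2, the cardiac troponin T, stood at 0.266 CPM in WT and 2.21 CPM in G9Gl (higher by 3.04 ± 0.438 SE on the log2 scale, adjusted p = 8.26e-07, edgeR). Myf6 stood at 0.022 CPM in WT and 0.62 CPM in G9Gl. Cdh5, Tnnt2 and Myf6 passed the filter on low counts through G9Gl, where they are high. Their calls, among the 7, were thus in part set by the filter, largely so for Cdh5 and Myf6.

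Mamdc2, described above, and Sulf1, an extracellular heparan sulfatase with 161, 145 and 147 G9Gl counts, are matrix genes. Serpinb9g, of the Serpinb9 family of protease inhibitors, had 2, 1 and 5 counts in WT, 0, 6 and 0 in S1S2 and 239, 211 and 215 in G9Gl libraries, and it shares 44.9% of its 75-base stretches with other genes of its family. Serpinb1c had 7, 10 and 7 counts in S1S2 and 59, 55 and 48 in G9Gl libraries.

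The remaining 40 members were given no role. Among the highest 20 by CPM these were A230006K03Rik, Glrp1, 1700049E17Rik2, G730013B05Rik, 4930461G14Rik, Psd4 and 1700019E08Rik. A230006K03Rik (chr7:61127996-61311721), a lincRNA, had 1, 2 and 3 counts in WT, none in S1S2 and 290, 340 and 319 in G9Gl libraries. G730013B05Rik (225, 212 and 234 G9Gl counts), 4930461G14Rik (197, 198 and 255) and 1700019E08Rik (163, 191 and 198) are lincRNAs too. The last had no count in WT or S1S2. Glrp1 had 5, 3 and 5 counts in WT, 5, 3 and 4 in S1S2 and 340, 188 and 252 in G9Gl libraries, with the lncRNA gene Gm19589 next to it at 31, 41 and 37. Psd4, an exchange factor for Arf6, had 224, 167 and 208 counts in G9Gl against 2 in each of the other genotypes.

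1700049E17Rik2 had 1, 0 and 2 counts in WT, 9, 6 and 12 in S1S2 and 273, 216 and 236 in G9Gl libraries, but all of its 75-base stretches occur in other genes, so its counts cannot be assigned to this copy. The same holds for the pseudogenes Gm18852 and Gm18853, with 97.8% shared: each lies within a GTPase gene of the Gvin family, Gm4070 and Gvin1, which rose from 0.327 to 26.5 CPM and from 0.372 to 22.2 CPM. Over all members, 59 of 113 had no 75-base stretch in another gene, 25 shared over 10% and 4 over 50%.

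Some members lie near each other. Joined at gaps of up to 500 kb, 32 of the 113 members fell into 13 positional groups of 2 to 5, and the rest lay alone. How often other WT-silent genes lie this close was not counted. The largest group was a stretch of 409 kb on chromosome 15 with genes of the Ly6 superfamily, small surface proteins anchored by lipid that mark blood cell subsets. It held Gml, Gml2, I830127L07Rik, Ly6g and BC025446. Gml had no WT or S1S2 count and 92, 77 and 123 in the G9Gl libraries, and BC025446 likewise had none and 109, 100 and 125. Gml2 had 1 WT count and 59, 84 and 89 G9Gl counts, I830127L07Rik had 1 count in WT and in S1S2 and 40, 44 and 42 G9Gl counts, and Ly6g had 2, 4 and 2 counts in WT, 1, 1 and 1 in S1S2 and 53, 72 and 56 in G9Gl libraries.

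Of the genes between these members, 3 were active in WT MEFs and rose in G9Gl MEFs as well, while most others, such as Cyp11b2, were at or near 0 in every genotype. Ly6a, known as Sca-1, stood at 42.2 CPM in WT, 50.8 CPM in S1S2 and 426 CPM in G9Gl MEFs (log2 fold change 3.37 in G9Gl). Ly6c1 stood at 11.9, 15 and 128 CPM (3.46). Ly6e rose in both mutants, with 121, 255 and 396 CPM and log2 fold changes of 1.10 in S1S2 (adjusted p = 3.14e-11) and 1.74 in G9Gl. Ly6f, past the end of the group, had 10, 7 and 21 counts in WT, none in S1S2 and 167, 172 and 203 in G9Gl libraries. All 4 were called higher in G9Gl MEFs. The promoter of Ly6g (chr15:75155011-75155310, plus strand) is shown for this group.
Ly6g: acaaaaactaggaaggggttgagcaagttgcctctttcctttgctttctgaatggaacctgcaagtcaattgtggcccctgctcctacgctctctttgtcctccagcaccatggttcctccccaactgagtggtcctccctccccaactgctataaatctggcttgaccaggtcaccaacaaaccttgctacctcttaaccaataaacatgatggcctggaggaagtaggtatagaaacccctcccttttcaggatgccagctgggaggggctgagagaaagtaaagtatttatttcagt
It has 1 CpG and a single match to TATAAA, and no match to the other 3 motifs.

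Other groups also had changed neighbours. Psd4 and Pax8 on chromosome 2 lie beside Il1rn, the interleukin-1 receptor antagonist, which had 388, 330 and 351 counts in WT, 19, 21 and 18 in S1S2 and 3085, 2923 and 3220 in G9Gl libraries. It thus moved in opposite directions in the mutants, with log2 fold changes of -3.78 (S1S2, adjusted p = 3.15e-14) and 3.22 (G9Gl, adjusted p = 1.53e-17, edgeR). Gm13415, antisense to Pax8, rose from 0.313 to 22.8 CPM in G9Gl and to 1.4 CPM in S1S2 MEFs. Near Rarres2, which encodes chemerin, on chromosome 6, Lrrc61 was called higher in G9Gl MEFs (log2 fold change 1.09), but not when G9Gl replicate 3 (0.92) or WT replicate 1 (0.87) was left out. Lrrc61 overlaps Rarres2 on the opposite strand and holds 25.9% of its 75-base stretches. Atp6v0e2, farther out, was again lower in S1S2 (0.0156 CPM) and higher in G9Gl (3.54 CPM) than in WT MEFs (0.912 CPM). Repin1, between Rarres2 and Gimap9, went from 14.8 CPM in WT to 8.28 CPM in G9Gl (log2 fold change -0.81). The other pairs were Gm17094 and 1700009N14Rik, which lie end to end on chromosome 4, and Rprm and Galnt13 on chromosome 2. Gm17094 had 115, 100 and 106 counts in the G9Gl libraries and no others, and Rprm had 4, 0 and 2 counts in WT, none in S1S2 and 35, 51 and 48 in G9Gl libraries.

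To see how far this extended, every tested gene outside the members was placed by its distance from the nearest member. This grouping was chosen after the values of the members had been seen. Of 127 genes within 50 kb, 50 (39.4%) were called higher and 1 lower in G9Gl MEFs, against 6.77% and 3.4% of all genes tested. In S1S2 MEFs 17 of the same genes (13.4%) were called higher, against 4.66%. By distance, the share called higher in G9Gl was 61.1% for 18 overlapping genes, 35.8% for 109 genes up to 50 kb away, 22.7% for 75 genes up to 100 kb, 17.3% for 243 genes up to 250 kb, and 7.6% for 342 genes up to 500 kb. Beyond 1000 kb it was 5.41% of 13878 genes.

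The share was also counted without genes whose calls the members or the lists could share. Without overlapping genes it was 35.8%, and without listed interferon genes and genes of the left-out families 42 of 115 (36.5%). With all of these left out it was 31 of 98 (31.6%). Genes with at least 1 CPM in every WT library did not need a mutant to pass the filter. Of these, 11 of 72 neighbours (15.3%) were called higher, against 384 of 12261 such genes (3.13%). Members of a gene family lie side by side and share sequence, so neighbours are not independent of the members or of each other.

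**Figure D4:**
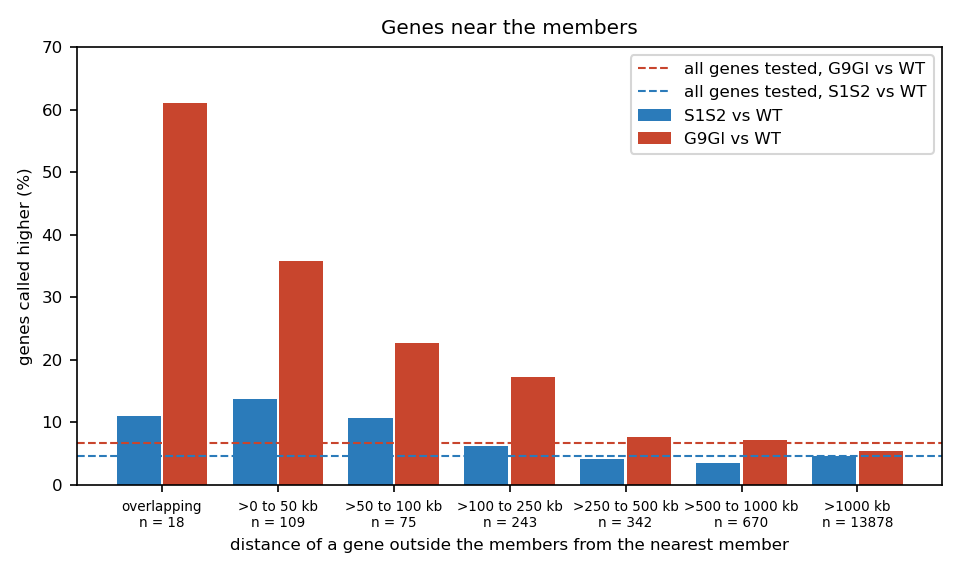
Share of tested genes outside the members called higher in G9Gl (red) and S1S2 (blue) than in WT, by distance from the nearest member, with the number of genes in each bin. Dashed lines give the shares over all genes tested, 6.77% and 4.66%. The red bars fall from 61.1% for overlapping genes to 5.41% beyond 1000 kb.

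Whether strand was used in counting is not given in the sources used here, which bears on overlapping genes. 8030451A03Rik, with 0, 4 and 1 counts in WT, none in S1S2 and 91, 97 and 122 in G9Gl libraries, lies opposite Tnc, the matrix protein tenascin C, which went from 57.7 CPM in WT to 484 CPM in G9Gl MEFs (log2 fold change 3.10). 2010016I18Rik lies opposite Dennd2d, at 0.152 CPM in WT and 10.4 CPM in G9Gl MEFs (6.08). On either strand, 0.782% of the 75-base stretches of 8030451A03Rik occur in another gene, mostly Tnc, and 7.15% of those of 2010016I18Rik, mostly Dennd2d. Reads from these shared stretches cannot be told apart without strand. Bst1, Rgs20, Cfap61 and Cyp4f18 overlap genes on the opposite strand that were expressed in WT MEFs at 103, 109, 64.3 and 27.7 CPM, and whose G9Gl means were 125, 86.6, 66.3 and 25.9 CPM.

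Listed genes of further tissues outside the members were examined beside these. Of 14 germ cell and meiosis genes tested, 1 was called higher and 1 lower in G9Gl MEFs (S1S2, 4 and 1), where 6.77% (S1S2, 4.66%) of all genes tested were higher. Ddx25, a testis RNA helicase, had 13, 5 and 12 counts in WT, none in S1S2 and 184, 170 and 187 in G9Gl libraries, and Syce2, of the synaptonemal complex, fell from 10.2 to 3.55 CPM in G9Gl (a change of -1.50 ± 0.136 SE on the log2 scale, adjusted p = 7.6e-08, edgeR). Of 52 listed X-linked testis genes in the table, 3 outside the members were tested. They were at or near 0 in WT and passed the filter through the mutants, so their calls (3 higher in G9Gl and 2 in S1S2 MEFs) were largely set by the filter and only their levels are given. Rhox5, a homeobox gene of the reproductive tract, stood at 0.0875 CPM in WT, 1.49 CPM in S1S2 and 10.8 CPM in G9Gl MEFs, Xlr at 0.0442, 1.21 and 0.501 CPM, and Magea10 at 0, 0 and 0.922 CPM. Xlr has close copies on the chromosome, so its counts are uncertain.

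Of 8 trophoblast and placenta genes, 4 passed as higher and 1 as lower in G9Gl MEFs, and 3 and 1 in S1S2 MEFs. Without S1S2 replicate 2 only 1 was higher in S1S2 MEFs, and Plac1 (1.17 there) lost its S1S2 call without S1S2 replicate 1 (1.11) or 2 (1.03), without WT replicate 2 (1.03) or 3 (0.98), and with the replicate block (1.18, adjusted p = 0.0103, edgeR). The 6 defining trophoblast markers summed to 0.398 to 0.809 CPM in the WT libraries, 0.891 to 1.41 CPM in S1S2 and 1.69 to 2.82 CPM in G9Gl. Nearly all of this was Plac1, while Tpbpa, Gcm1, Elf5 and Cdx2 were at 0 in every G9Gl library. The listed genes with the largest changes were Ctla2b (0.0434 to 1.07 CPM), Wnt7b (11.6 to 54.3 CPM) and Plac1 (0.545 to 2.09 CPM), with log2 fold changes of 4.53, 2.25 and 1.96 in G9Gl MEFs, and Wnt7b was also called higher in S1S2 MEFs (1.59). Ctla2b, near 0 in WT and S1S2, passed the filter on low counts through G9Gl. Its call, among the 4, was thus largely set by the filter. Of 7 pluripotency and early embryo genes none was called higher and 1, Lefty1 (-1.0, adjusted p = 4.92e-05, edgeR), was called lower, a call lost under DESeq2, with its size factors (-0.99), and without G9Gl replicate 1 (-0.95), G9Gl replicate 2 (-0.98) or WT replicate 1 (-0.93). Among 17 fibroblast markers, 5 were called higher and 3 lower in G9Gl MEFs, and none higher and 9 lower in S1S2 MEFs. Dcn fell from 7.31 to 0.196 CPM in G9Gl (-5.17), while Thy1 rose from 5.04 to 38 CPM (2.94) and Acta2, smooth muscle actin, from 270 to 1031 CPM (1.96). All 3 were called lower in S1S2 MEFs, by -1.71, -1.29 and -2.68.

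**Figure D5:**
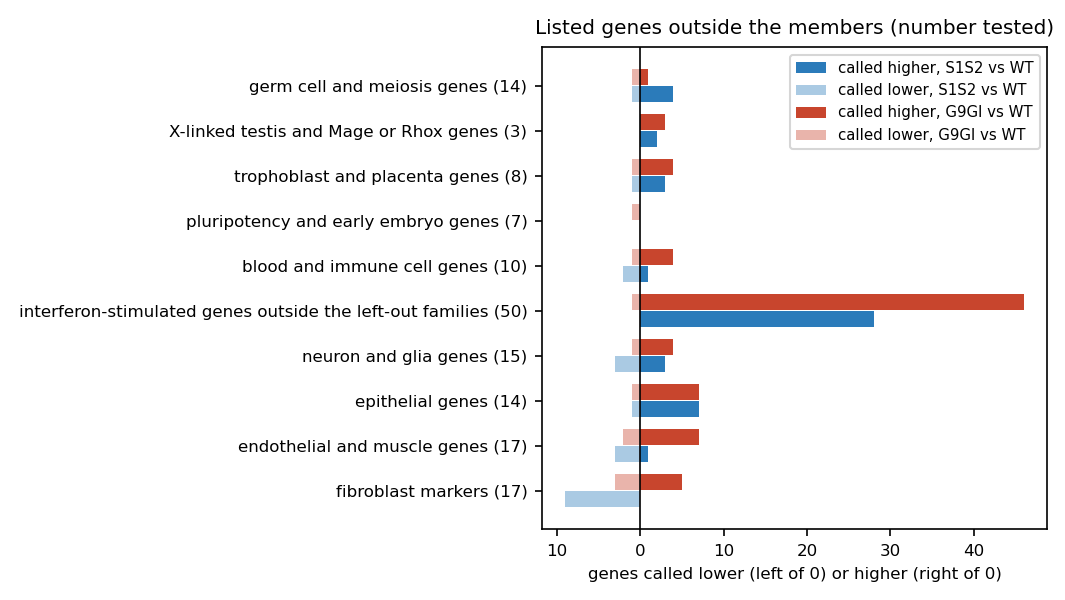
Number of listed genes outside the members called higher (right of 0, full colour) and lower (left of 0, pale) than in WT, for G9Gl (red) and S1S2 (blue), with the number tested in parentheses. The interferon list stands out with 46 of 50 genes higher in G9Gl and 28 in S1S2, and the fibroblast list has 9 of 17 genes lower in S1S2. Some listed genes were near 0 in WT and were tested through their mutant counts.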

How the data were processed

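The deposited table held raw read counts per Ensembl gene. Per the labels and the methods of the study, which were taken to describe these libraries, the authors prepared stranded total RNA libraries, used cutadapt for trimming of paired-end reads, STAR 2.5.2b with TEtranscripts settings for alignment to GRCm38, and TEtranscripts for counting of genes. The annotation release and strand setting of the counting were not given in the sources used here. Multiply aligned reads can be divided among similar genes, which leaves genes with close copies uncertain.

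Symbols and positions came from GENCODE M21 (GRCm38), which matched 47310 of 47937 identifiers. CPM was computed from library totals. All 9 libraries entered a single edgeR 4.0.16 fit in R 4.3.3 with TMM factors (0.9806 to 1.029), filterByExpr (15540 genes) and the quasi-likelihood F test. A gene was called if its p, adjusted after Benjamini and Hochberg, did not exceed 0.01 and it changed at least 2-fold. A gene near 0 in WT was tested only if a mutant brought it past filterByExpr. Calls of such genes were largely set by the filter. Standard errors (SE) came from the spread of log2 CPM between libraries with a prior count of 2, not from the fit. The prior count damps this spread in genes near 0, so their SE understates the uncertainty. The fit was checked on simulated data. Replicates differed by more than counting noise, so none was counted as a duplicate. Numbers of replicates did not pair libraries across genotypes. Library totals of 21319778 to 32157623 counts set the precision, with 1 CPM worth between 28.4 and 30.8 counts in a G9Gl library.

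The members and the gene lists were chosen with earlier results of these data known. Named members were the 20 with the highest mean G9Gl CPM, those in a gene list, those within 500 kb of another member and those nearest the limits, and named genes outside were the 3 with the largest called change per list and the 4 targeted genes. Other named genes, the roles, the defining markers, the motifs and the grouping by distance were chosen after values were seen. Some genes are not reported here. A stretch of 75 bases counted as shared if an annotated transcript of another gene held it on either strand. Alternatives were DESeq2 1.42.0, its size factors, no filter, only the libraries compared, a replicate block, other limits of the rule, thinned libraries and leaving out each library.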

Additional observations from a re-analysis of the deposited data

Results flagged for a closer look

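Of 15427 genes tested outside the members, 235 moved in opposite directions from WT in the mutants, with each contrast, and that between the mutants, past the limits of the edgeR test. Among the named genes and the neighbours of members 7 did so. Named listed genes were picked for their large changes, so this count cannot be set beside that over all genes. Each value below is the log2 fold change of G9Gl over S1S2 MEFs, and all libraries of the genotypes were separate.

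Among listed genes, Pkp1, a desmosome protein, had a value of 6.91 (adjusted p = 1.21e-15), with 1.61 CPM in WT, 0.239 CPM in S1S2 and 29.4 CPM in G9Gl MEFs. Thy1, a fibroblast surface antigen, had 4.23 (adjusted p = 2.4e-15), with 5.04, 2.04 and 38 CPM. Acta2, smooth muscle actin, had 4.65 (adjusted p = 2.94e-19), with 270, 41.2 and 1031 CPM. Ddx25, a testis helicase, had no S1S2 count, so its fitted value of 10.44 depends on the prior count. Against a floor of 3 counts over the S1S2 group its WT level was at least 7.65-fold and its G9Gl level at least 146-fold higher.

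The other 3 are neighbours of members. Il1rn, beside Psd4 and Pax8, had a value of 7.0 (adjusted p = 1.55e-19), with 11.5, 0.823 and 105 CPM. Atp6v0e2, near Rarres2, had 7.58 (adjusted p = 4.73e-10), with a single S1S2 count. Ly6f, beside the Ly6 group, had a fitted value of 10.44 and no S1S2 count, so that its WT level was at least 9.69-fold and its G9Gl level at least 146-fold higher.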

How the results depend on the processing

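The member count of 113 fell to 62 with a G9Gl limit of 2 CPM and rose to 194 with 0.5 CPM, as fewer or more genes meet a stricter or looser limit, and all 62 were among the 113. Other limits, TMM scaling, kept families and thinning gave 91 to 126, and leaving out a library gave 112 to 127. Thinned to the smallest total, 105 of the 113 were members. Without the filter on low counts, 3 germ cell, 5 X-linked testis and 1 pluripotency genes outside the members were called higher in G9Gl MEFs, in place of 1, 3 and 0, since more genes were tested. Without S1S2 replicate 2, 1 trophoblast gene was called higher in S1S2 MEFs in place of 3, and leaving out other libraries gave up to 3.

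The genes called higher ranged, when a library was left out, from 1038 to 1095 in G9Gl against WT, 698 to 752 in S1S2 against WT and 1222 to 1292 between the mutants, the listed genes from 81 to 88 and 48 to 50, and the neighbours within 50 kb from 48 to 50.

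Same-numbered libraries deviated together weakly (correlations of -0.0686 to 0.124), so the replicate number was not taken as a pairing. With the replicate block, 1049 genes were called higher in G9Gl and 721 in S1S2 MEFs, 1242 between the mutants, and 50 of the neighbours, and Plac1 lost its call in S1S2 MEFs (1.18). The block turned the sign of Magea10 in S1S2 MEFs to 0.06, where it has no count in either group.

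Signs turned in uncalled results only. With a library left out, the log2 fold change of Tnnt2 in S1S2 MEFs ran from -0.17 (without WT replicate 3) to 0.85, with -0.11 without S1S2 replicate 1 and -0.00315 without WT replicate 2. In G9Gl MEFs, Rpl18-ps1 ran from -0.12 (without WT replicate 1) to 0.40, Setdb2 from -0.09 to 0.01 (without G9Gl replicate 2), and Gprasp1 reached 0.01 without WT replicate 3. The cause was not tested. Lefty1 lost its call in G9Gl MEFs under DESeq2 (-1.0), with its size factors (-0.99) and in 3 of the fits without a library.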
